A study of Mus musculus with 103 samples.

Results

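Neutrophil granule and calprotectin genes are described here as 9 genes that mouse neutrophils or their precursors express at high levels: Mpo, Elane, Prtn3, Ctsg, Ltf, Camp, Ngp, S100a8 and S100a9. They were chosen by symbol, among 12393 genes named on the array, and each was read by 1 probe set. The probe set of S100a8 is of a kind that can match more than 1 transcript, so its signal is not certain to be S100a8 alone. The 9 genes were followed on 45 of 103 arrays: 16 arrays of tissue RNA, 11 of RAW267 cells and 18 of sorted splenic lymphocytes. The remaining 58 arrays carried a commercial universal mouse RNA.

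The study compared ways of amplifying and labelling very small amounts of RNA for Affymetrix mouse arrays. The tissue RNA came from a commercial panel of spleen, embryo, lung, ovary, heart, kidney, brain and liver, and each tissue had 1 array made with the BIIB protocol from 500 pg and 1 made with the standard one-cycle kit from 1 ug. RAW267 cells, a cultured line, were sorted in lots of 50, 100, 500, 1000, 5000 and 10000 cells, with 2 arrays per number and 1 at 100 cells. T and B cells were sorted from the spleen of 1 normal mouse and mixed from all T to all B, with 12 arrays of 100 cells and 6 of 500. The strain, sex and age of the animals, the stage of the embryo and any treatment of RAW267 cells are not stated in these sources. The labels do not say that replicates were separate preparations, and all lymphocytes came from 1 animal, so p-values measure the spread between these arrays.

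Neutrophils carry ready-made proteins in granules that are filled in order as the cell matures. Azurophil granules, filled first, hold myeloperoxidase (Mpo), which makes hypochlorous acid, and the serine proteases neutrophil elastase (Elane), proteinase 3 (Prtn3) and cathepsin G (Ctsg). Specific granules follow and hold lactoferrin (Ltf), which binds iron, and cathelicidin (Camp), an antimicrobial peptide, and in the mouse the neutrophilic granule protein Ngp. S100a8 and S100a9 form calprotectin, a calcium-binding and zinc-binding protein abundant in neutrophil cytosol. Granule transcripts are made mostly by precursors in blood-forming tissue, which in the mouse includes the spleen and the fetal liver, while mature neutrophils keep S100a8 and S100a9. Lactoferrin is also made by secretory epithelia.

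The arrays labelled brain and those labelled liver went against their labels. Albumin (Alb), a liver product, had signals of 389092 and 1383443 on the arrays labelled brain and of 65.2 and 378.5 on the arrays labelled liver. Snap25, a synaptic protein, had signals of 70.5 and 143.4 on the arrays labelled brain and of 59501 and 168374 on the arrays labelled liver. These arrays are therefore named by their labels only. The spleen label went with its B cell markers: the summed signal of 9 of them lay between 77912 and 99331 on the spleen arrays and between 1358 and 9956 on the other 14 tissue arrays. The summed signal of 11 T cell markers did not single out spleen. It lay between 31115 and 35527 there and between 36271 and 54618 on the arrays labelled liver. On the latter 2 of the 11 markers were at or above 500, against 9 to 11 in spleen.

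RefSeq promoters of build GRCm38.p6, from 250 bases before to 50 bases after the annotated start, were matched for 9 of 9 genes. Those of 6 genes are shown: both pairs of neighbouring genes, and Ltf with Ngp, 2 specific granule genes on the same chromosome. Elane (chr10:79886062-79886361, plus strand) and Prtn3 (chr10:79879417-79879716, plus strand) lie side by side with 0 coding genes between them, as do S100a8 (chr3:90668821-90669120, plus strand) and S100a9 (chr3:90695672-90695971, minus strand). Ltf (chr9:111019042-111019341, plus strand) and Ngp (chr9:110419558-110419857, plus strand) lie on the same chromosome with 20 coding genes between them. Camp, not shown, also lies there, with 8 coding genes between it and Ngp. Each sequence runs 5′ to 3′ on the strand of its gene. Capitals mark, on either strand, the letters TTNNGNAA (a C/EBP site pattern), GAGGAA (a PU.1 core) and TATAAA (the letters of the TATA box, wherever they lie).
Elane: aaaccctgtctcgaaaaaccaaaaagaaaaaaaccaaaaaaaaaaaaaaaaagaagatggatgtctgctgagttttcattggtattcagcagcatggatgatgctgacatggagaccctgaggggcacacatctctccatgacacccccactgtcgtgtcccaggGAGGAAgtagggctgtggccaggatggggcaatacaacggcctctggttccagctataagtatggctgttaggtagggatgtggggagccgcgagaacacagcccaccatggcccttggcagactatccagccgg
Prtn3: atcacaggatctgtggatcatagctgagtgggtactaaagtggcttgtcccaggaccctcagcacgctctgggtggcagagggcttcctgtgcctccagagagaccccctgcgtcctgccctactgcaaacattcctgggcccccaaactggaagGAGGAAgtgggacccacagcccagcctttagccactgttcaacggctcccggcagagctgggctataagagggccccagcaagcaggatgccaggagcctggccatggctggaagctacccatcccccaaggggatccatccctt
Ltf: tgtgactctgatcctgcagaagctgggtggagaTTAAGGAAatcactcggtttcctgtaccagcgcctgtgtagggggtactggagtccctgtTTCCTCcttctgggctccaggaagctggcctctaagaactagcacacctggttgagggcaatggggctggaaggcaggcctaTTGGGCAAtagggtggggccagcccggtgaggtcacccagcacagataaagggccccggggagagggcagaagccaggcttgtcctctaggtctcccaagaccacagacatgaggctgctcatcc
Ngp: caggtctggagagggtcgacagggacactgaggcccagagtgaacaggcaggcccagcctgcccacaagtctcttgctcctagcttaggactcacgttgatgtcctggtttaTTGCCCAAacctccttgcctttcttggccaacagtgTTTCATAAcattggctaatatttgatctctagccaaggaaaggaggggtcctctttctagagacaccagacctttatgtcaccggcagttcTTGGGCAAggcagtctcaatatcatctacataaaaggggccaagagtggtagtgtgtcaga
S100a8: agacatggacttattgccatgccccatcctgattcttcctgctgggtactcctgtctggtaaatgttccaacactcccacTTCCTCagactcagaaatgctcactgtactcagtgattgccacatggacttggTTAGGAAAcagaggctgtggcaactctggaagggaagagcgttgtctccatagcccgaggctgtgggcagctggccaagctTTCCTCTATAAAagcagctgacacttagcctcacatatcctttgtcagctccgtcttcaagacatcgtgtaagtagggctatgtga
S100a9: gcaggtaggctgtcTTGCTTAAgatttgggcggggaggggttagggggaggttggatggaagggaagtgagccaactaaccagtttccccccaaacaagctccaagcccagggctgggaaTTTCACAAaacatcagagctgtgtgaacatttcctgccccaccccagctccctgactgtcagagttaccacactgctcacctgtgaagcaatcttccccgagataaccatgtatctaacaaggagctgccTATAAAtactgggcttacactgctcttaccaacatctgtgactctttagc

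GAGGAA was found in the promoters of Mpo, Elane, Prtn3, Ctsg, Ltf and S100a8, 6 of 9, against 28.3% of 32851 mouse promoters of the same length. It lay at -85 to -80 in Elane and at -95 to -90 in Prtn3, followed by gt in both. TTNNGNAA was found in Ltf, Ngp, S100a8 and S100a9, 4 of 9, against 40.7% of all promoters. It was absent from Camp, the remaining specific granule gene, and from the 4 azurophil protease and peroxidase genes. The same 8 letters, TTGGGCAA, stood at -75 to -68 in Ltf and at -11 to -4 in Ngp. TATAAA was found in Ctsg, S100a8 and S100a9, 3 of 9, against 13.6%. It lay at -237 to -232 on the reverse strand in Ctsg, and at 1 to 6, after the annotated start, in S100a9. The MYB core AACNG, which is not capitalised, was found in 9 of 9 against 80.3%. In S100a8 the reverse PU.1 letters at -36 to -31 end where TATAAA at -30 to -25 begins, and the C/EBP letters at -117 to -110 share bases with a MYB core at -111 to -107. In Ltf the PU.1 letters at -157 to -152 share 1 base with a MYB core at -161 to -157. These matches describe letters in a window and were not tested as binding sites.

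**Figure D1:**
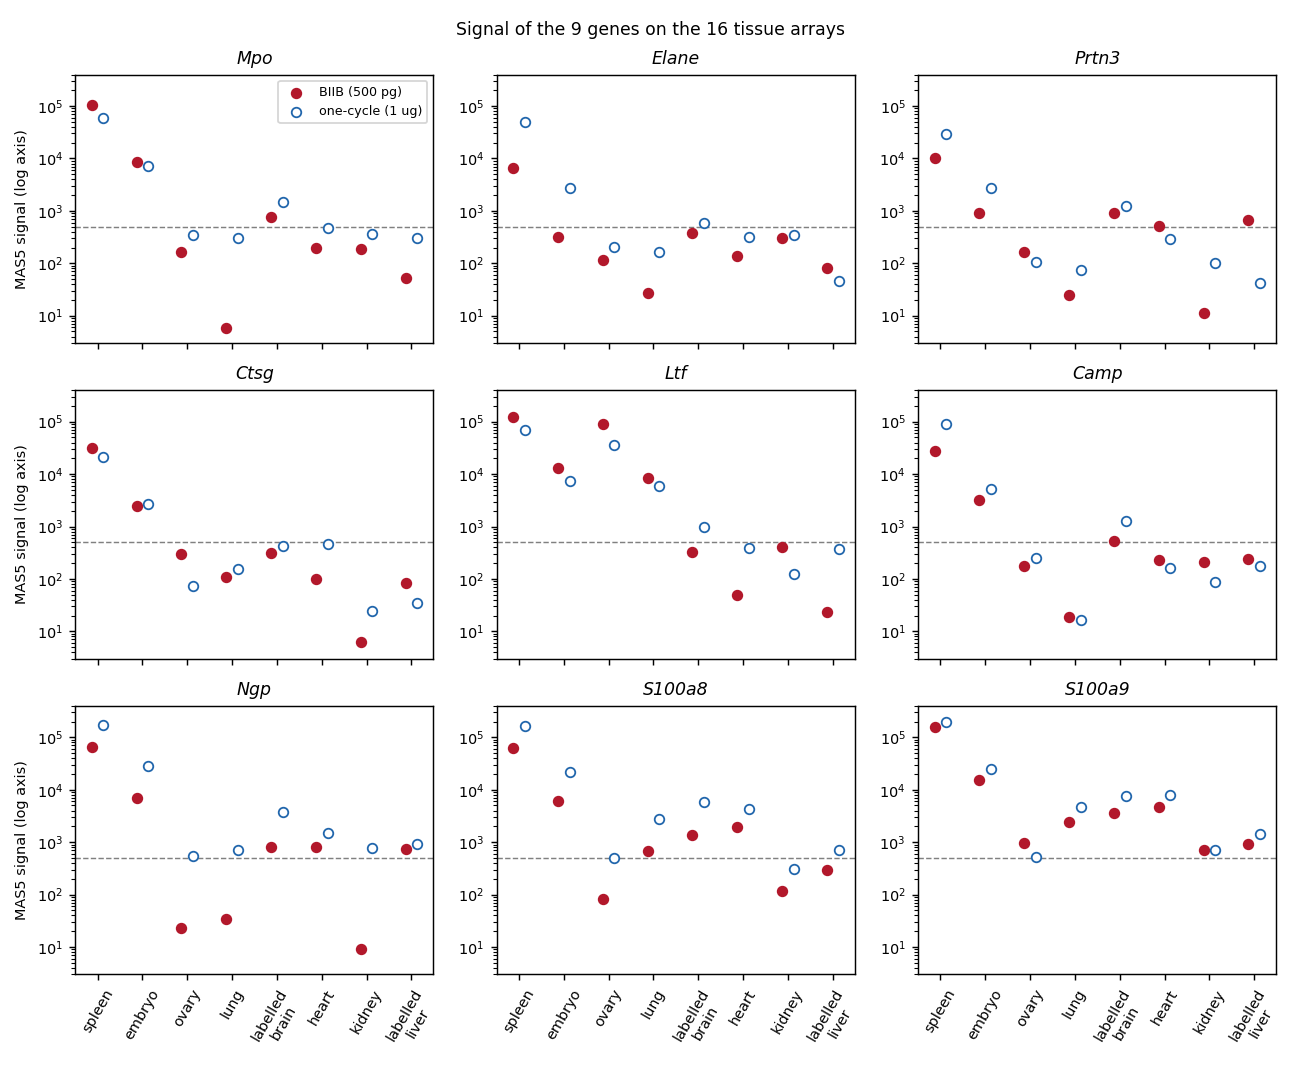
Deposited MAS5 signal (vertical, log axis) of each gene on the 16 tissue arrays, with filled points for BIIB arrays and open points for one-cycle arrays; the dashed line is the mean signal of 500 used as a filter. Spleen is the top tissue in every panel with either protocol, embryo is next for most genes, and ovary comes close to spleen for Ltf alone.

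All 9 genes were higher in spleen than in the other 7 tissues, with log2 differences between 5.35 for Prtn3 and 6.99 for Mpo. Mpo had a signal of 107158 with BIIB and 59516 with one-cycle in spleen, against 5.9 to 8497 on the other 14 tissue arrays. Its difference was 6.99 ± 0.39 (SE, 2 spleen arrays against 14), or 127-fold, with a limma adjusted p of 4.9e-07. Both spleen arrays lay above all others, and embryo was the next tissue with either protocol. Calls required a 2-fold or larger change together with an adjusted p (Benjamini-Hochberg over all probe sets tested) below 0.05. By this rule 14.8% of the 15180 probe sets tested were called higher in spleen, against 9 of 9 here. All 9 genes passed the filter on mean signal, which a gene dim elsewhere can pass through its spleen signal alone.

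The 3 azurophil proteases followed Mpo. Ctsg, a chymotrypsin-like protease, had 31401 with BIIB and 21527 with one-cycle in spleen, against 6.3 to 2632 elsewhere, a difference of 6.15 ± 0.36 (adjusted p = 6.9e-07, limma). Elane had 6483 with BIIB and 49469 with one-cycle in spleen, against 27.4 to 2767 elsewhere, and Prtn3 had 10359 and 29805, against 11.5 to 2704. The spleen arrays of Elane thus differed from each other more than those of Ctsg, yet the lower one was still above all 14 other arrays. Elane was higher by 5.57 ± 0.52 and Prtn3 by 5.35 ± 0.55 on the log2 scale (adjusted p = 1.1e-05 and 1.9e-05, limma).

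Among the specific granule genes, Camp had 27945 with BIIB and 92328 with one-cycle in spleen, against 16.6 to 5269 elsewhere. Ngp had 65458 with BIIB and 171279 with one-cycle in spleen, against 9.2 to 28134 elsewhere. Both were over 100-fold higher, by 6.74 ± 0.39 and 6.68 ± 0.40 on the log2 scale (adjusted p = 6e-07 and 7.4e-07, limma). Ltf had 121877 with BIIB and 70691 with one-cycle in spleen, against 23.6 to 90651 elsewhere, and was higher by 5.62 ± 0.57 (adjusted p = 1.8e-05, limma). Ltf was the exception in overlap: its BIIB array of ovary lay above its one-cycle array of spleen. The other 8 genes had both spleen arrays above all 14 others, which 862 of 15180 probe sets, 5.68%, also did.

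The calprotectin genes also had spleen as their top tissue. S100a8 had 62965 with BIIB and 163334 with one-cycle in spleen, against 81.7 to 21683 elsewhere, and was higher by 6.18 ± 0.27 (adjusted p = 2.1e-07, limma). S100a9 had 156741 with BIIB and 192370 with one-cycle in spleen, against 525 to 24797 elsewhere, and was higher by 5.88 ± 0.31 (adjusted p = 3.9e-07, limma). S100a9 was at or above 500 on all 16 tissue arrays. On the one-cycle spleen array S100a9 stood at percentile 99.95 of all probe sets, S100a8 at 99.9 and Ngp at 99.92, and on the BIIB spleen array the 9 genes ranged between 87.65 for Elane and 99.68 for S100a9.

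**Figure D2:**
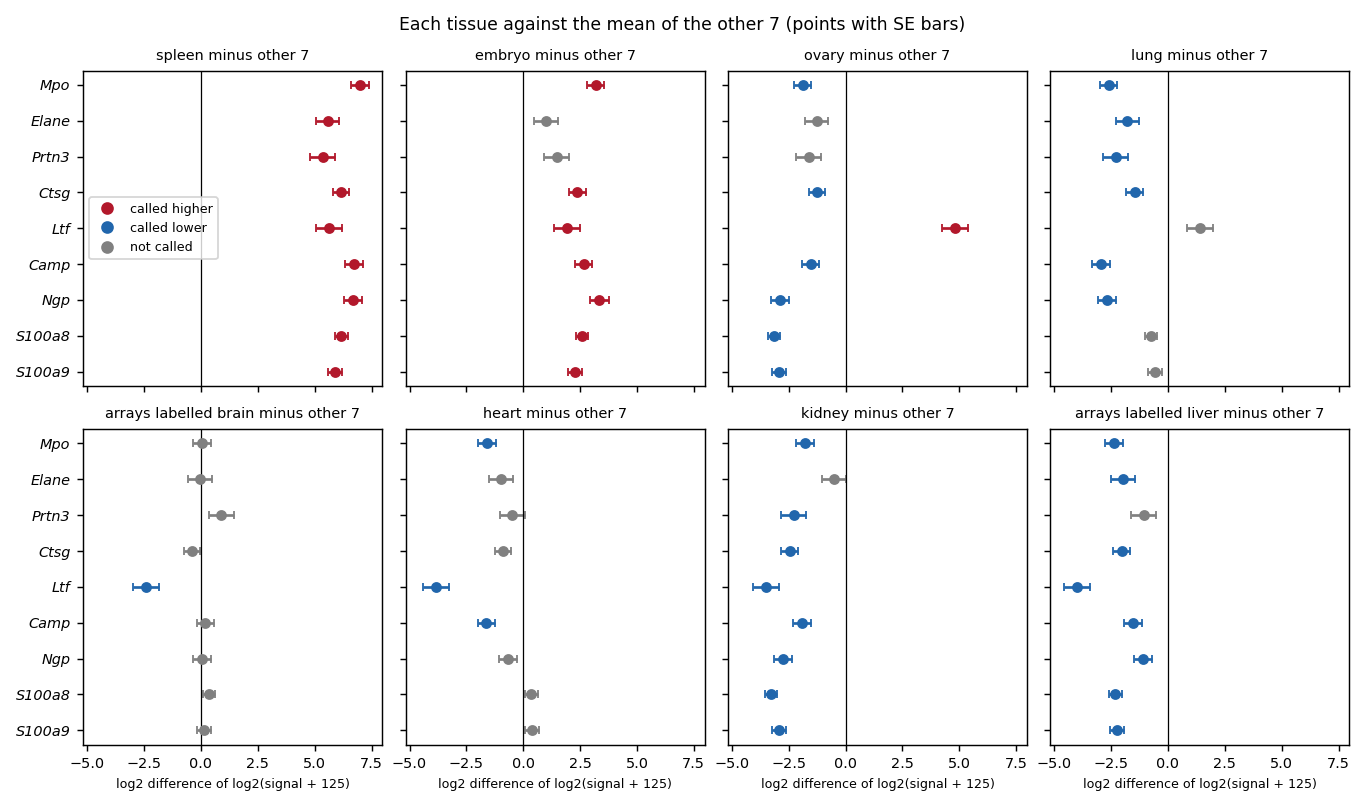
Difference in log2 signal, after a pseudocount was added, between each tissue and the mean of the other 7 (horizontal), with SE bars, for the 9 genes (rows). All points are to the right of 0 in spleen and embryo, and the ovary panel holds Ltf at 4.82 with the other 8 genes to the left of 0.

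Embryo was second to spleen in the order of fitted levels for 8 genes, and for Ltf ovary was. Embryo stood beyond 2 standard errors above the following tissue for 6 of those 8, and not for Elane and Prtn3. Against the other 7 tissues 7 of 9 genes were called higher, with 10.3% of all probe sets, and the differences ran between 1.94 for Ltf and 3.35 for Ngp. Ngp had 6873 with BIIB and 28134 with one-cycle in embryo, against 9.2 to 3784 on the 12 arrays of the 6 tissues other than embryo and spleen. Mpo had 8497 with BIIB and 7214 with one-cycle in embryo, against 5.9 to 1491 on those 12 arrays, and was higher than the other 7 tissues by 3.18 ± 0.39 (adjusted p = 0.00014, limma). For 6 genes both embryo arrays lay above those 12 arrays, but the share of all probe sets that did so was not counted. Elane (1.01 ± 0.52, adjusted p = 0.21, limma) and Prtn3 (1.48 ± 0.55, adjusted p = 0.081, limma) were not called, and their BIIB signals in embryo, 322.1 and 897.2, lay below those of the arrays labelled brain.

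All 9 genes were lower in embryo than in spleen, where 10.4% of probe sets were called lower. The differences lay between -2.91 for Ngp and -3.99 for Elane. S100a8 had 5978 with BIIB and 21683 with one-cycle in embryo, against 62965 and 163334 in spleen, a difference of -3.14 ± 0.36 (adjusted p = 5.3e-05, limma). Without the BIIB embryo array or the one-cycle spleen array Prtn3 lost its call (adjusted p = 0.062 and 0.057, limma), and without the other array of either tissue Ltf did (adjusted p = 0.066 and 0.072, limma). Since spleen is part of the mean of the other 7, each tissue was also set against heart, kidney, ovary and the arrays labelled brain and liver alone. Then 9 of 9 genes were called higher in embryo, with 11.9% of all probe sets, between 1.72 for Elane and 4.22 for Ngp. With either embryo array left out, Ltf lost its call against the other 7 tissues.

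In lung, Ltf, S100a8 and S100a9 were the 3 of the 9 genes with signals above 500 on both arrays. Camp, the extreme case, had 18.5 with BIIB and 16.6 with one-cycle in lung, the lowest tissue for this gene. Against the other 7 tissues, 6 of 9 genes were called lower in lung (Mpo, Elane, Prtn3, Ctsg, Camp and Ngp, between -1.47 and -2.95), with 9% of all probe sets, but Elane, Prtn3 and Ctsg lost their call with either lung array left out. Without spleen and embryo in the comparison, 1 gene was called lower (Camp, -1.45 ± 0.40, adjusted p = 0.017, limma), with 10.3% of all probe sets. The other 5 genes lost their call. Ltf had 8462 with BIIB and 5891 with one-cycle in lung and was the 1 gene called higher in that comparison (2.80 ± 0.58, adjusted p = 0.0039, limma), with 13.6% of all probe sets. S100a8 had 690 with BIIB and 2784 with one-cycle in lung, and S100a9 had 2377 and 4744, and neither was called in either comparison.

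Spleen and lung were also set against each other directly. All 9 genes were higher in spleen than in lung, where 11.4% of probe sets were called higher in spleen, and none of the 9 calls was lost without any 1 of the 4 arrays. The differences lay between 3.69 ± 0.75 for Ltf (adjusted p = 0.003, limma) and 8.48 ± 0.51 for Camp (adjusted p = 8e-07, limma). S100a8 and S100a9 stood between these, at 6.04 ± 0.36 and 5.64 ± 0.42.

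Ovary stood apart for Ltf. Ltf had 90651 with BIIB and 35566 with one-cycle in ovary, higher than the other 7 tissues by 4.82 ± 0.57, or 28.2-fold (adjusted p = 0.00016, limma), with 8.83% of all probe sets called higher. In the order of fitted levels ovary lay 0.71 below spleen for Ltf, which is within 2 standard errors of the difference, and 2.52 above embryo, which is beyond it. The other 8 genes did not share this: 6 were called lower in ovary, with 6.59% of all probe sets, and 3 of those (Ngp, S100a8 and S100a9) were also called lower without spleen, lung and embryo in the comparison, with 8.9% of all probe sets. S100a8 had 81.7 with BIIB and 486.9 with one-cycle in ovary, and S100a9 had 942.9 and 525.

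Heart and the arrays labelled brain had the next calprotectin signals after embryo. S100a8 had 1933 with BIIB and 4223 with one-cycle in heart, and 1347 and 5896 on the arrays labelled brain. S100a9 had 4610 with BIIB and 7898 with one-cycle in heart, and 3605 and 7688 on the arrays labelled brain. These tissues did not differ from each other beyond 2 standard errors for either gene. Lung followed, then the arrays labelled liver, ovary and kidney, and kidney and ovary did not differ beyond 2 standard errors. For Mpo and Camp the arrays labelled brain came next after embryo, beyond 2 standard errors above the following tissue, and no neighbours further down differed. For Elane and Prtn3 the gap below spleen was the one gap beyond 2 standard errors. Without spleen, lung and embryo in the comparison, S100a8 (2.16 ± 0.28, adjusted p = 0.00017, limma) and S100a9 (2.07 ± 0.33, adjusted p = 0.00068, limma) were the 2 genes called higher in heart, with 11.6% of all probe sets.

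On the arrays labelled brain, which carry liver markers, Mpo had 763.6 with BIIB and 1491 with one-cycle, Camp had 526.5 and 1291, and Ngp had 799 and 3784. With spleen in the comparison 1 of 9 genes was called lower there, Ltf (-2.43 ± 0.57, adjusted p = 0.005, limma), with 24% of all probe sets. Ltf lost that call without the BIIB array (-1.70 ± 0.78, adjusted p = 0.14, limma). Without spleen, lung and embryo in the comparison, 7 of 9 were called higher, with 10.9% of all probe sets, between 1.10 for Ctsg and 2.15 for S100a8, and Ctsg had been -0.40 ± 0.36 against the other 7. Kidney had 8 of 9 genes called lower against the other 7, with 12.4% of all probe sets, and the arrays labelled liver had 8 of 9, with 19.4%. Heart had 3 of 9 (Mpo, Ltf and Camp), with 12.2%. Without spleen, lung and embryo 4 genes were called lower in kidney (Ltf, Ngp, S100a8 and S100a9), with 9.88% of all probe sets. Ltf was the 1 gene called lower on the arrays labelled liver, with 18.3%, and in heart, with 12.9%, so these 2 counts are no higher a share than that of all probe sets. Leaving out 1 array changed 1 to 3 calls in each of these tissues.

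Other neutrophil genes were read from lists of genes chosen for this tissue. Of 18 other granule and secreted neutrophil genes on the array, 16 passed the filter and 14 were higher in spleen, with a median log2 difference of 3.16 against -0.06 over all probe sets tested. Genes dim elsewhere can pass through spleen, and without the filter 16 of 18 were higher, with a median of 3.04 and with 11.3% of all probe sets called higher. Among them were Chil3, a chitinase-like protein (6.11 ± 0.38), Cd177, a neutrophil surface glycoprotein (5.11 ± 0.49), the collagenase Mmp8 (4.35 ± 0.46) and Lcn2, which binds bacterial siderophores (3.94 ± 0.43). Of 11 neutrophil receptor genes 9 were higher without the filter, and among the 5 that passed it were Fpr2, a formyl peptide receptor, higher by 4.03 ± 0.47, and Csf3r, the G-CSF receptor, higher by 3.07 ± 0.36. Of 7 granulocyte transcription factor genes tested, Myb (3.68 ± 0.46) and Spi1, which encodes PU.1 (1.95 ± 0.43), were higher and Cebpa (-0.81 ± 0.33) was not called. Adjusted limma p-values for these called genes lay at or below 0.0034, and those of all genes named from lists below lay at or below 0.049 where a gene is given as higher or lower.

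S100 genes outside the calprotectin pair went both ways. Of 8 tested, S100a4 was higher in spleen (1.76 ± 0.41) and S100a1, S100a16, S100b and S100g were lower, with a list median of -0.62. Of 3 genes for receptors of calprotectin tested in spleen, Ager was lower (-1.53 ± 0.47) and Tlr4 (0.74 ± 0.46) and Cd36 (0.25 ± 0.25) were not called. In lung all 3 were higher, Ager by 8.02 ± 0.47, Cd36 by 2.57 ± 0.25 and Tlr4 by 1.74 ± 0.46, where 1881 of 15180 probe sets were. Ager is also on the list of lung markers used here, so its difference is no separate result about calprotectin receptors.

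Markers of other blood cells moved with the spleen result. Without the filter, B cell markers were higher in spleen for 8 of 9, megakaryocyte and platelet markers for 7 of 7, T cell markers for 9 of 11, erythroid markers for 6 of 9 and macrophage markers for 13 of 16. The summed signal of 9 erythroid markers lay between 200290 and 271214 in spleen and between 1182 and 80127 on the other tissue arrays, with embryo highest among these. That of 7 megakaryocyte and platelet markers lay between 57361 and 166219 in spleen and between 1441 and 21227 elsewhere, and that of 16 macrophage markers between 146014 and 195795 in spleen and between 16736 and 225167 elsewhere, highest on the arrays labelled brain. Their part in the result was not tested. In bulk RNA, more cells of a type and more RNA per cell cannot be told apart.

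**Figure D3:**
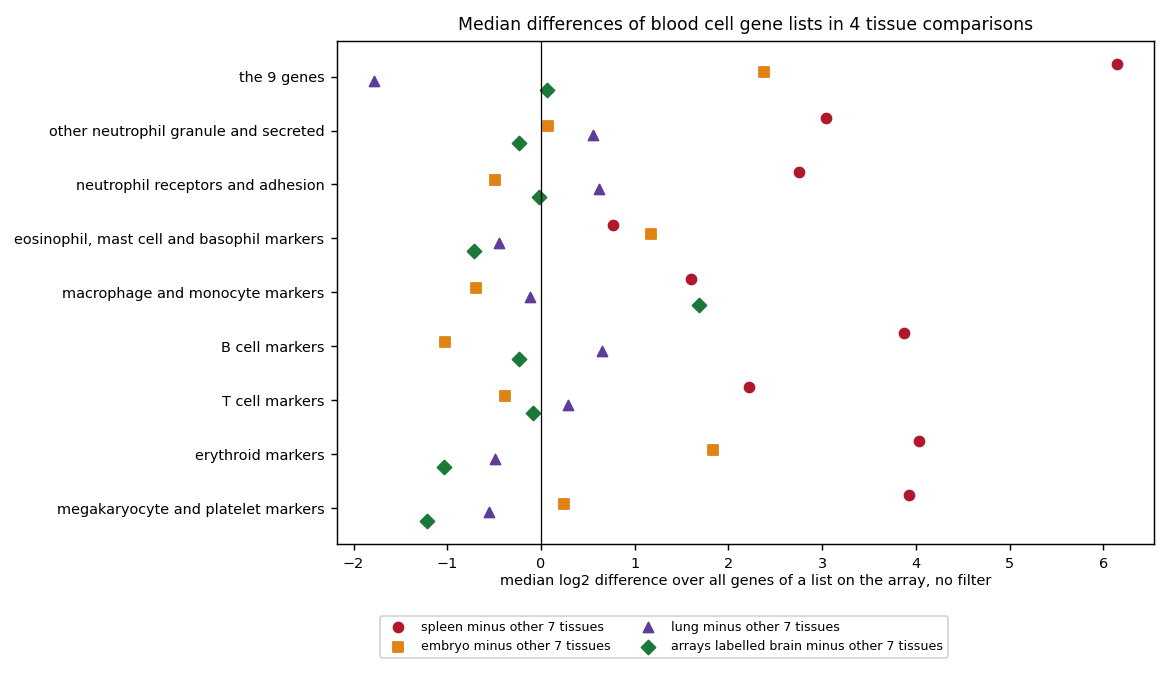
Median log2 difference (horizontal) over all genes of each list on the array, with no filter (rows), in 4 comparisons of a tissue with the other 7. The 9 genes have the highest median of the lists drawn in spleen, 6.15, and in embryo they stand at 2.38 beside the erythroid list at 1.83 and the eosinophil, mast cell and basophil list at 1.17; over the genes of these 2 lists that passed the filter the medians were 2.55 and 2.79.

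The other neutrophil genes were not raised together in embryo. Of 16 tested, Stfa3, a stefin (6.38 ± 0.39), and Mmp9, gelatinase B (2.64 ± 0.41), were higher and the list median was 0.07. Of the receptor genes, Fpr2 (-2.37 ± 0.47) and Itgb2 (-1.02 ± 0.27) were lower. Without the filter, 5 of 10 eosinophil, mast cell and basophil markers were higher in embryo, with 7.9% of all probe sets, and so were 5 of 9 erythroid markers. The mast cell proteases Cma1 (5.76 ± 0.35) and Cpa3 (5.58 ± 0.43) led the first list and the ion exchanger gene Slc4a1 (3.74 ± 0.35) the second. Macrophage markers were higher in 0 of 16 and lower in 4. In lung 5 of 16 other neutrophil genes were higher, Chil3 by 3.99 ± 0.38, Lyz2, a lysozyme that macrophages share, by 3.65 ± 0.23, Hp by 3.54 ± 0.28, Lcn2 by 1.74 ± 0.43 and Slpi by 1.16 ± 0.39. On the arrays labelled brain 13 of 16 macrophage markers and 0 of the 9 genes were called higher than in the other 7 tissues, with 10.7% of all probe sets. That 0 depends on the comparison, since 7 of the 9 were called higher without spleen, lung and embryo in it.

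Across the 16 tissue arrays the genes other than Ltf varied together, with Pearson r between 0.853 and 0.993 over 28 pairs. Over the 14 arrays without spleen these pairs had r between 0.584 and 0.982, so part of the likeness rests on spleen. All are given as a description since arrays share tissues and protocols. The closest pair was S100a8 and S100a9, with 0.993, and 0.982 over the 14 arrays without spleen. Ltf had r between 0.42 and 0.65 with the others, and between -0.073 and 0.388 without spleen. Among genes outside the set, Asf1b, a histone chaperone, had the pattern most like the mean of the azurophil genes (0.965) and of the calprotectin pair (0.954). Next to the azurophil genes came Nfe2, a factor of erythroid and platelet lineages (0.954) and Ms4a3 (0.95), and next to the calprotectin pair came Fermt3 (0.949) and Rac2 (0.944), both expressed in blood cells. Cdt1 (0.97), Mcm3 (0.963) and Nusap1 (0.958), genes of DNA replication and mitosis, were most like the mean of Ltf, Camp and Ngp. Asf1b (0.957) and Fau (0.953) came next. Ltf had r of 0.545 with Camp and 0.424 with Ngp, and of 0.17 and -0.042 without spleen. That mean is therefore not a pattern which the specific granule genes share.

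BIIB arrays were lower than one-cycle arrays for 3 of 9 genes over the 8 tissues, close to the 24.4% of all probe sets called lower, with a median shift of -0.27 over all of them. Ngp differed by -1.74 ± 0.26 (adjusted p = 0.00014, limma), S100a8 by -1.45 ± 0.18 (adjusted p = 2.7e-05, limma) and Elane by -1.01 ± 0.34 (adjusted p = 0.023, limma), and Ltf by 0.00 ± 0.38. Elane lost its call without the embryo arrays (-0.77 ± 0.32, adjusted p = 0.061, limma). S100a8 was lower on the BIIB array in each of 8 tissues. Spleen itself did not go one way: Mpo, Ctsg and Ltf were higher with BIIB and the other 6 genes lower. The protocols also differ in input, 500 pg and 1 ug, so protocol and input cannot be told apart.

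**Figure D4:**
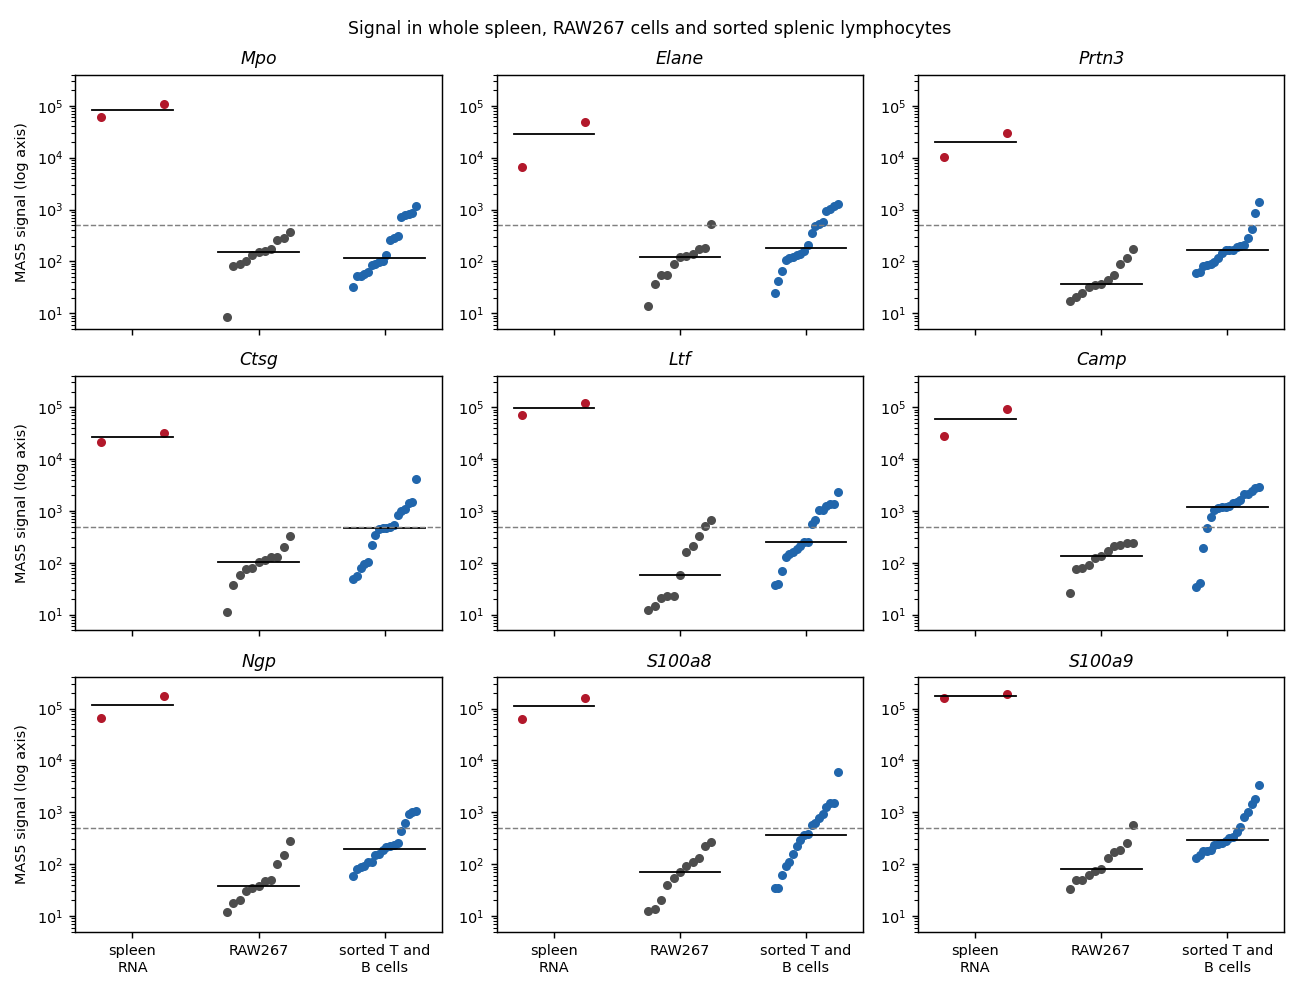
Deposited MAS5 signal (vertical, log axis) of each gene on 2 spleen arrays, 11 RAW267 arrays and 18 arrays of sorted T and B cells, ordered within each group, with the median as a line and the filter level of 500 dashed. The spleen points lie above every RAW267 and lymphocyte point in all 9 panels, and the share of all probe sets that do so was not counted.

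Lymphocytes sorted from spleen had far lower signals of the 9 genes than whole spleen RNA. S100a9 had 156741 and 192370 in spleen, against a lowest value of 131.6, a median of 297.3 and a highest of 3329 on the 18 lymphocyte arrays, a difference of 8.04 ± 0.75 (adjusted p = 4e-09, limma). Ngp had 65458 and 171279 in spleen, against 59.5, 200.2 and 1057 in lymphocytes, and Mpo had 107158 and 59516, against 32.8, 115.6 and 1156. The groups did not overlap for any of these genes, but the share of all probe sets without overlap was not counted here. All 9 were called higher in spleen, between 4.95 ± 0.78 for Elane and 8.04 for S100a9, with 4% of all probe sets. With BIIB arrays alone, which leave 1 spleen array, 7 of 9 were called, and Elane (4.00 ± 1.12) and Camp (4.65 ± 1.27) had adjusted limma p-values of 0.09 and 0.08.

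The other lists split in this comparison. Of 16 other neutrophil genes tested 8 were higher in spleen, led by Lyz2 (8.31 ± 0.75) and Lcn2 (7.46 ± 0.73), as were 9 of 16 macrophage markers, 6 of 8 erythroid and 5 of 7 platelet markers. B cell markers were higher or lower in 0 of 8, and 1 of 11 T cell markers, Zap70, was lower (-2.62 ± 0.56). Spleen and lymphocytes come from different animals and inputs, which cannot be told apart from the sort.

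Within the lymphocyte arrays the 9 genes were dim and scattered. Of 162 values, 37% were at or above 500, against 60.1% to 67.8% of all probe sets per array. Camp was at or above that level on 14 of 18 arrays, with a lowest value of 33.5, a median of 1211 and a highest of 2927. Ctsg ranged between 48.4 and 4173 and S100a8 between 34.2 and 6054, and the 2 arrays of 100 B cells had 219.3 and 4173 for Ctsg, so replicates differed as much as mixtures. Of 5 genes that passed the filter, 0 were called between 100 B cells and 100 T cells, where 44 of 18327 probe sets, 0.24%, were called in either direction. Ltf had 36.8 and 38.9 on those B cell arrays, against 678.3 and 1054 on the T cell arrays (-2.58 ± 1.14, adjusted p = 0.72, limma), but 1339 with 500 B cells, against 1345 with 500 T cells.

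RAW267 cells had low signals of these genes. Of 99 values, 4% were at or above 500, against 43.7% to 52.5% of all probe sets per array. Camp had a lowest value of 25.6, a median of 132.5 and a highest of 241.5 on RAW267 arrays, against 33.5, 1211 and 2927 on lymphocyte arrays, and was lower by 2.10 ± 0.40 on the log2 scale (adjusted p = 5.2e-05, limma). S100a8 had 12.4, 70.8 and 272.6 on RAW267 arrays, against 34.2, 368.2 and 6054 on lymphocyte arrays. The groups overlapped for both genes. The 3 genes that passed the filter (Ctsg -1.35 ± 0.40, Camp and S100a8 -1.43 ± 0.43) were called lower in RAW267, with 31.8% of all probe sets and a median shift of -0.33 over them. They passed through their signal on the lymphocyte arrays, so that their shared direction is no result. Without the filter 6 of 9 were called lower, with 35.8% of all probe sets.

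The lower calls in RAW267 depended on the setting: with quantile normalization only Camp was called (-1.47 ± 0.40, adjusted p = 0.0042, limma), and with arrays of 100 and 500 cells alone none was. In that smaller comparison the differences were of like size, with larger errors: Camp differed by -2.07 ± 0.75 (adjusted p = 0.063, limma), Ctsg by -1.43 ± 0.73 (adjusted p = 0.17, limma) and S100a8 by -1.36 ± 0.80 (adjusted p = 0.24, limma). Macrophage markers went both ways: without the filter 7 of 16 were higher in RAW267 than in lymphocytes, with 12.5% of all probe sets, and 6 were lower, with a list median of 0.07 against -0.68 over all probe sets. Of the 9 that passed the filter 7 were higher, with 16.8% of the probe sets tested. The summed signal of the 16 lay between 250888 and 525775 on RAW267 arrays and between 6709 and 111298 on lymphocyte arrays. All 11 T cell markers were lower. Lyz2, which macrophages and neutrophils share, was higher by 8.68 ± 0.36, while Mmp9 (-2.23 ± 0.34) and Serpinb1a (-4.90 ± 0.72) were lower. Of other S100 genes, S100a4 (5.11 ± 0.54) and S100a6 (2.68 ± 0.55) were higher in RAW267, unlike S100a8. Over 50 to 10000 RAW267 cells none of the 9 genes passed the filter. Without it none was called for a trend with the log10 of the cell number. On the fitted line S100a9 changed by -1.25 ± 0.39 in log2 signal from 50 to 10000 cells (adjusted p = 0.12, limma).

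In the universal RNA most of the genes were dim. Of 522 values 16.1% were at or above 500, and S100a8 was at or above that level on 36 of 58 arrays. S100a8 had 945.5 to 1360 on the 4 one-cycle arrays and 2771 to 2840 with Ovation from 500 ng, against 60.8 to 392.9 with BIIB from 5 ng, while S100a9 had 59.7 to 174.5 with one-cycle.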

How the data were processed

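Signals were measured on 103 arrays of 1 mouse Affymetrix design. The deposited values are linear MAS5 signal intensities, per the submitters' processing notes, with 1 value for each probe set. No version or setting of MAS5 is stated. Each array had been scaled to a common level, since the mean left after trimming 2% at each end was 2500.23 to 2502.45 on every one. Groups came from the labels and genes from the platform annotation, with names and promoters from RefSeq GRCm38.p6 tables. Each array was set to the common trimmed mean and log2(signal + 125) taken, so changes of dim genes are understated. Probe sets with a mean under 500 over the arrays of a fit and 64 controls were left out. All probe sets were fitted with limma 3.58.1 in R 4.3.3 (lmFit, eBayes, two-sided). Tissues were tested in 1 fit of 16 arrays with protocol as a covariate, and cells in fits of the groups compared. With 2 arrays per tissue, the number of arrays limits the precision. The scripts were tested on simulated data. Genes named outside the set came from lists, or were the 5 most like each pattern by r over the 16 arrays. The 9 genes and the lists were chosen with earlier results of these data known. Alternatives were another normalization, pseudocounts of 25 and 500, no filter, no covariate, other comparison groups and leaving out arrays. Replicate numbers of RAW267 and lymphocyte arrays came from the labels. Same-numbered arrays correlated between -0.049 and 0.235 in their deviations over 10 RAW267 pairs and between 0.013 and 0.086 over 15 lymphocyte pairs, so the numbers did not pair arrays. Sequences of proteins were not used here.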

Additional observations from a re-analysis of the deposited data

Results flagged for a closer look

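Of 63 groups of 4 universal RNA arrays tested across the 9 genes, 8 held 1 array far from the other 3. For independent values with a normal spread, chance gives about 1 in 20 such groups. The 9 genes share arrays and most are dim here, so that rate may not hold and no excess is claimed. All 8 were BIIB arrays, as were 54 of the 63 groups, and all 8 stood above the rest of their group. At 50 pg, Mpo read 56.2 on replicate 3, against 3.6 to 10.0 on the others, and S100a9 read 421.7 on the same array, against 21.3 to 34.6. Ltf read 506.3 on replicate 4 at 50 pg, against 19.3 to 57.4, and Camp read 301.3 on that array, against 92.6 to 102.6. At 5 ng, Elane read 142.7 on replicate 1, against 17.8 to 29.0, Prtn3 read 77.6 on replicate 2, against 22.8 to 29.9, and Ngp read 323.2 on replicate 3, against 19.9 to 31.7. At 100 pg, Ctsg read 70.8 on replicate 2, against 10.0 to 17.3. Of these signals 7 lie under the level of 500 used as a filter.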

How the results depend on the processing

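The 9 differences between spleen and the other 7 tissues, and the 9 between spleen and lung, kept their direction and call under every alternative run, with 81 and 72 values. Without the protocol covariate fewer of the 9 genes were called lower (heart 1, lung 3, ovary 2), and all probe sets called became 2828 for the arrays labelled brain, 1047 for embryo, 1189 for heart, 1551 for kidney, 2870 for the arrays labelled liver, 1256 for lung, 773 for ovary and 2717 for spleen. Without spleen, lung and embryo in the comparison, genes of the 9 called higher became 7 on the arrays labelled brain, 2 in heart and 1 in lung, and those called lower became 0 on the arrays labelled brain, 1 in heart, 4 in kidney, 1 on the arrays labelled liver, 1 in lung and 3 in ovary. There several differences changed sign: Ctsg to 1.10 and Elane to 1.00 on the arrays labelled brain, and Ngp to 0.42 on the arrays labelled liver. So did Ctsg to 0.17 in ovary, Elane to 0.48 in kidney, and S100a8 to 0.77 and S100a9 to 0.83 in lung. In heart Ngp changed to 0.88, Ctsg to 0.56 and Prtn3 to 0.46, and none of these 3 was called in either comparison. With a pseudocount of 25, 3 of the 9 genes were called lower in ovary, 25 probe sets were called between B and T cells, and 162 for the RAW267 slope on cell number. With a pseudocount of 500 these last counts were 84 and 526, and RAW267 against lymphocytes had 1 gene of the 9 and 5250 probe sets. Quantile normalization gave 1 gene of the 9 for RAW267 against lymphocytes and 975 probe sets for spleen against lymphocytes, and BIIB arrays alone gave 209. RAW267 against lymphocytes had 6 of the 9 genes called lower without the filter, and 0 with arrays of 100 and 500 cells alone (2291 probe sets). Against unmixed T cells 4836 probe sets were called, and against unmixed B cells 5012. In both of these Camp, Ctsg and S100a8 did not pass the filter and were not tested, so the absence of calls is no result. A slope on the share of B cells called 214 probe sets, and the RAW267 slope without the filter called 108. The cause of these changes was not tested.

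Leaving out 1 array gave these ranges. Genes of the 9 called lower ranged over 0 to 1 on the arrays labelled brain, 5 to 6 in kidney, 5 to 9 on the arrays labelled liver, 3 in lung for either array, and 3 to 4 in ovary. All probe sets called ranged over 1076 to 1845 for embryo, 1924 to 2843 for heart, 2025 to 2222 for kidney, 1534 to 2048 for lung, 795 to 1147 for ovary, 2782 to 3204 for spleen against lung, 2577 to 3224 for embryo against spleen, 270 to 428 for spleen against lymphocytes, 8 to 22 for B against T cells, and 2 to 1373 for the RAW267 slope. A tissue left with 1 array is assumed to vary like the others. With the replicate block, which also left out the 100-cell array, the RAW267 slope called 1148 probe sets in place of 338 and 0 of the 9 genes. Leaving out that array without the block gave 1373, so the rise is not due to the block alone. With the block, B against T cells had 0 of the 9 genes called.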
